A study of Gallus gallus with 40 samples.

Results

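Liver RNA of 2 chicken lines, high growth (HG) and low growth (LG), was compared at 3 weeks of age on 10 of the 40 two-colour spotted cDNA arrays of the study. The lines had been selected in opposite directions for body weight at 8 and 32 weeks of age and were raised under a standard broiler protocol. Each array held HG liver and LG liver of the same age, 1 labelled with Alexa Fluor 555 and the other with Alexa Fluor 647. The 10 arrays are those titled 3 weeks of age apart from replicates 3 and 4, whose values were nearly the same (r = 1.00) although their labels put HG on opposite dyes. HG carried 647 on replicates 2, 6, 8, 10 and 12 and 555 on replicates 1, 5, 7, 9 and 11. The design text counts 8 birds per line at this age and a second hybridisation that used 4 of them again. Replicates 5 to 12 were taken as that second hybridisation, since the titles do not mark it. Which arrays share a bird is not stated, so p-values measure the spread between arrays, some of which share birds, and are too small to that degree.

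The liver makes most plasma proteins, turns surplus carbohydrate into fat for export to other tissues, and answers growth hormone by making insulin-like growth factor. In birds it is the main site of fatty acid synthesis, with adipose tissue adding little. Lines selected for fast and slow growth are used to ask which of these hepatic functions differ with growth. The study repeated its hybridisation at the younger ages because few genes had differed there at first.

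The deposited value of a spot is a ratio of the dyes, and its log2 was turned by the dye that HG carried. The mean of the turned values, with each orientation given equal weight, is called the line effect here, in log2 units, and the mean of the unturned values over both orientations is called the dye effect. The sources used here do not give the dye in the numerator. If it is 647, the likely reading since the labels call that dye red, a positive line effect means more RNA in HG liver and a negative one more in LG liver. If it is 555, the lines change places. It is also not stated whether the ratios had been turned to HG over LG before deposit, in which case the mean over both orientations would be the line difference. Sides are therefore named positive and negative. In whole liver, fewer cells of a type and less RNA per cell cannot be told apart.

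A value was present for 8759 to 10301 of 19200 spots per array, and 8072 probes with values on at least 4 of 5 arrays of each orientation were tested. Replicates 1 and 2 were wider than the rest, with a standard deviation of the log2 ratio of 0.291 and 0.336 against 0.170 to 0.225 in replicates 5 to 12. The ratio gives no level per line, so the tissue could be checked only by which genes had values. Of 21 listed hepatocyte markers 14 genes were measured, among them TTR, TF, APOA1 and ORM1. The median standard error (SE) of a line effect was 0.0393.

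HG and LG liver differed in a single probe at 3 weeks at an adjusted p under 0.05 (limma), an unnamed clone printed at block 47, row 14, column 10. This was 0.0124% of the probes tested. It was named after its value was seen, because the naming rule took only probes with a gene symbol. No named gene passed. With HG on 647 the clone's log2 ratios were 1.21, 0.71, 1.30, 1.52 and 1.13 on replicates 2, 6, 8, 10 and 12. With HG on 555 they were -0.26, -0.29, -1.53, -1.43 and -1.45 on replicates 1, 5, 7, 9 and 11. The orientations did not overlap, each array lay on the side its dye label gives, and replicates 1 and 5 were nearest to zero. The line effect was 1.08 (SE 0.134, 2.12-fold, 10 arrays, adjusted p = 0.0307, limma), positive on 10 of 10 arrays, and its dye effect was 0.09. Its 95% interval ran from 0.79 to 1.38.

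The call of the clone was close to the threshold. It ended without any 1 of replicates 2, 6, 7, 8, 9, 10, 11 or 12, with adjusted p between 0.0526 and 0.183, and remained without replicate 1 or 5. It also ended with replicates 3 and 4 included (adjusted p = 1.00), arrays scaled to the same spread (0.102) and a spread pooled over 38 arrays (0.0789), while the line effect lay between 0.90 and 1.29 over 23 alternatives.

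**Figure D1:**
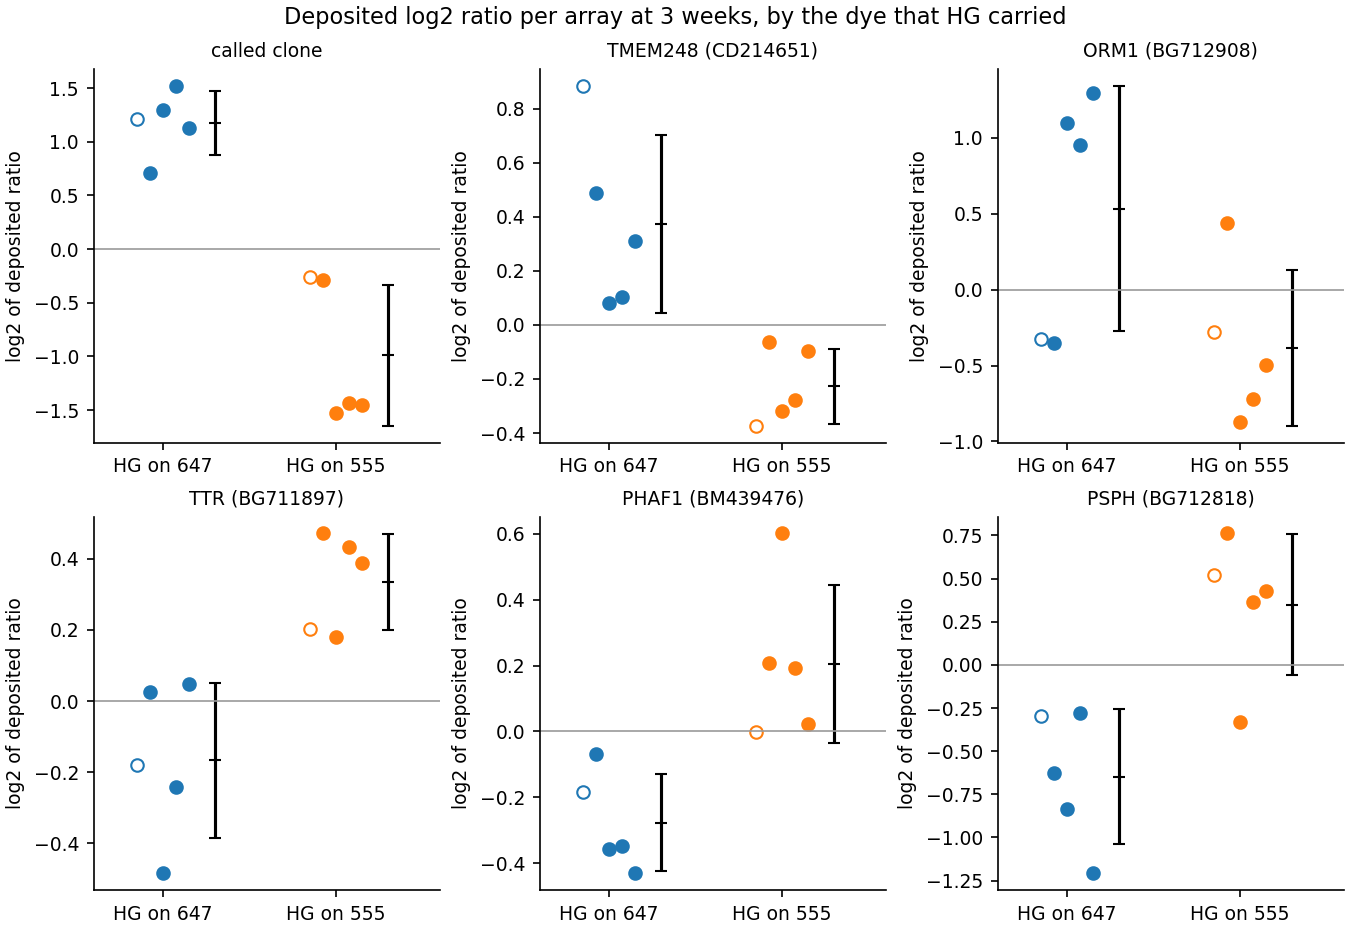
Log2 of the deposited ratio (y axis) at 3 weeks for 6 probes, split by the dye that HG carried (x axis), with 1 point per array, open points for replicates 1 and 2, and bars for mean ± SD of 5 arrays. For the called clone, TMEM248, TTR and PHAF1 the orientations do not overlap, while ORM1 and PSPH do.

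The clone kept its sign at the other ages, which played no part in choosing it. Its turned log2 ratio was positive on 24 of the 25 arrays of other ages that valued it. At 1 week it was positive on 9 of 9 arrays, between 0.82 and 1.88. At 7, 9 and 11 weeks it was positive on 4 of 4 arrays each, and at 5 weeks on 3 of 4, where replicate 1 had -0.41. Its line effect at 1, 5, 7, 9 and 11 weeks, fitted at each age alone, was 1.37, 1.67, 2.80, 2.37 and 3.25, so 3 weeks had the lowest value of the 6 ages. These values are descriptions of other birds and were not tested against 3 weeks as a trend.

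**Figure D2:**
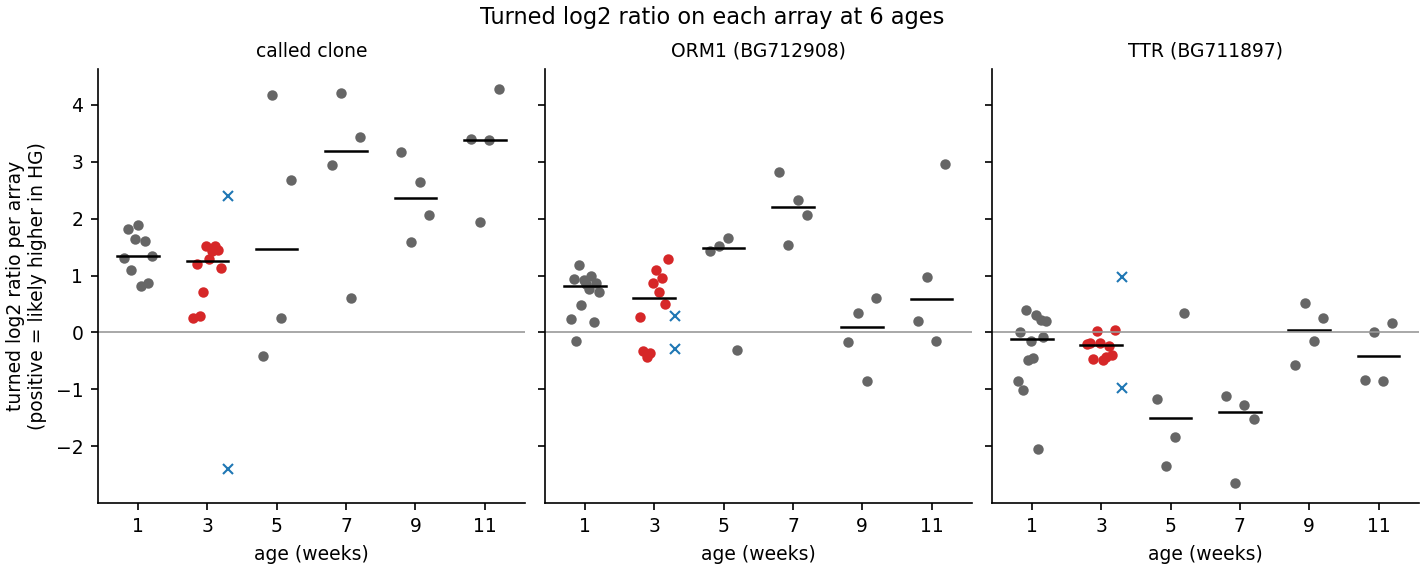
Turned log2 ratio (y axis, positive for likely higher in HG) on each array at 6 ages (x axis, weeks) for the called clone, ORM1 and TTR, with the 10 arrays of 3 weeks in red, medians as lines and the left-out replicates 3 and 4 as crosses. The clone lies above 0 on all arrays but 1 of those plotted as points, whereas ORM1 and TTR have their widest medians at 7 and 5 weeks.

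At an unadjusted p under 0.05 stood 222 probes, 2.75% of those tested, with 88 on the positive and 134 on the negative side (limma). Without any difference about 5% of probes would be expected there, so the share showed no excess in this fit. The count depended on the arrays and their weights. It was 540 of 8565 from replicates 5 to 12 alone and 754 of 8072 with array weights, each more than 5%. With both, a setting added after the data were seen, it was 809 of 8565. It was 53 of 8072 with the spread pooled over 38 arrays and 73 of 8512 with replicates 3 and 4 included. The orientations did not overlap in 63 probes, or 0.78%, of which 20 were positive and 43 negative. With 5 arrays per orientation, random order alone would give a share of about this size. As the genes below were picked by p on the same arrays, a lack of overlap in them is no separate evidence. The genes below are those with the smallest p on each side whose turned ratio kept its sign on 80% of arrays or more, 15 per side. None of the 30 passed, with an adjusted p of 1.00 each (limma), and they are given as values.

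On the negative side TTR, the plasma carrier of thyroid hormone and retinol made by hepatocytes, had log2 ratios of -0.18, 0.03, -0.48, -0.24 and 0.05 with HG on 647. With HG on 555 it had 0.20, 0.47, 0.18, 0.43 and 0.39, so that the orientations did not overlap. The line effect was -0.25 (SE 0.052, 1.19-fold, 10 arrays), and that of a second TTR probe was -0.12 (SE 0.038), with overlapping orientations. PHAF1, a factor of autophagosome formation, also had orientations that did not overlap, from -0.43 to -0.07 with HG on 647 and from -0.0014 to 0.60 with HG on 555. Its line effect was -0.24 (SE 0.056), while another PHAF1 probe had 0.0083. NME2, a nucleoside diphosphate kinase, had -0.17 (SE 0.047, 9 arrays), again without overlap.

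PSPH, which makes serine by its last step, had a line effect of -0.50 (SE 0.11, 1.41-fold), with 9 of 10 arrays negative once turned. Replicate 7 was the exception, since its log2 ratio of -0.33 lay within the range of the opposite orientation, -1.21 to -0.28. PSAT1, the preceding step of serine synthesis, had -0.08. ATIC, which completes the purine ring, had -0.30 (SE 0.079, 8 of 10 arrays) in one probe and -0.05 in the other. ATP6V1A, a subunit of the proton pump of lysosomes, had -0.21 (SE 0.057), with -0.05 in its other probe.

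The widest values of the negative side belonged to TM4SF1a, a membrane protein of the tetraspan family, at -0.61 (SE 0.16, 1.52-fold, 8 of 10 arrays). With HG on 647 its log2 ratios ran from -1.16 to -0.23 and with HG on 555 from -0.79 to 1.13, so the orientations overlapped broadly. FOXRED1, an assembly factor of respiratory complex I, had -0.47 (SE 0.16) and MCM4, a subunit of the replicative helicase, -0.38 (SE 0.13). Their other probes had 0.0098 and -0.0030. The log2 ratios of TM4SF1a, FOXRED1 and MCM4 rose and fell together over the arrays, so these genes are not separate observations. They were -1.16, -1.51 and -1.13 on replicate 2, 1.13, 0.83 and 0.54 on replicate 5, and -0.79, -0.71 and -0.68 on replicate 7. Why they ran together was not tested. TMEM123, a membrane protein, had -0.35 (SE 0.071, 9 of 10 arrays). Replicate 2 was the exception in sign, at 0.07 with HG on 647. Replicate 7, at 0.04 with HG on 555, kept the sign but lay within the range of the opposite orientation. Smaller values were those of NFYC, a CCAAT-binding subunit (-0.19), NEIL1, a DNA glycosylase (-0.15), FERMT1, an integrin activator (-0.15), TPRA1 (-0.12) and ACTA2, smooth muscle actin (-0.08). Further probes of NFYC (-0.03 and 0.01), TPRA1 (0.0037) and ACTA2 (0.0014) were nearer to zero.

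On the positive side TMEM248, a membrane protein, had 0.88, 0.49, 0.08, 0.10 and 0.31 with HG on 647 and -0.37, -0.06, -0.32, -0.28 and -0.10 with HG on 555. The orientations did not overlap and the turned sign was positive on 10 of 10 arrays. Its line effect was 0.30 (SE 0.069, 1.23-fold), with replicate 2 the farthest from zero. ALDH7A1, which breaks down lysine, had 0.24 (SE 0.074, 9 of 10 arrays) in one probe and -0.07 in the other. CYP4B7, a cytochrome P450, had 0.10 (SE 0.032) without overlap of the orientations and 0.10 (SE 0.10) in another probe, and HGD, an enzyme of tyrosine breakdown, had 0.17 and 0.15 in its probes.

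TF, transferrin, had 0.29 (SE 0.092, 8 of 10 arrays) in one probe and 0.11 (SE 0.037) in the other. AGT, angiotensinogen, had 0.17 (SE 0.071, 9 of 10 arrays) and C8A, a subunit of the complement membrane attack complex, 0.18 (SE 0.063). The remaining genes of this side were ZDHHC20, a palmitoyl transferase (0.21), MED27, a Mediator subunit (0.18), PXMP4, a peroxisomal membrane protein (0.14), ASB10 (0.12), DAD1, a subunit of the oligosaccharyl transferase (0.11), PMM2, which makes mannose 1-phosphate for glycosylation (0.11), ST13P5 (0.09, other probe 0.02) and CTNND1, a catenin (0.08). The other 2 CTNND1 probes had -0.06 each.

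**Figure D3:**
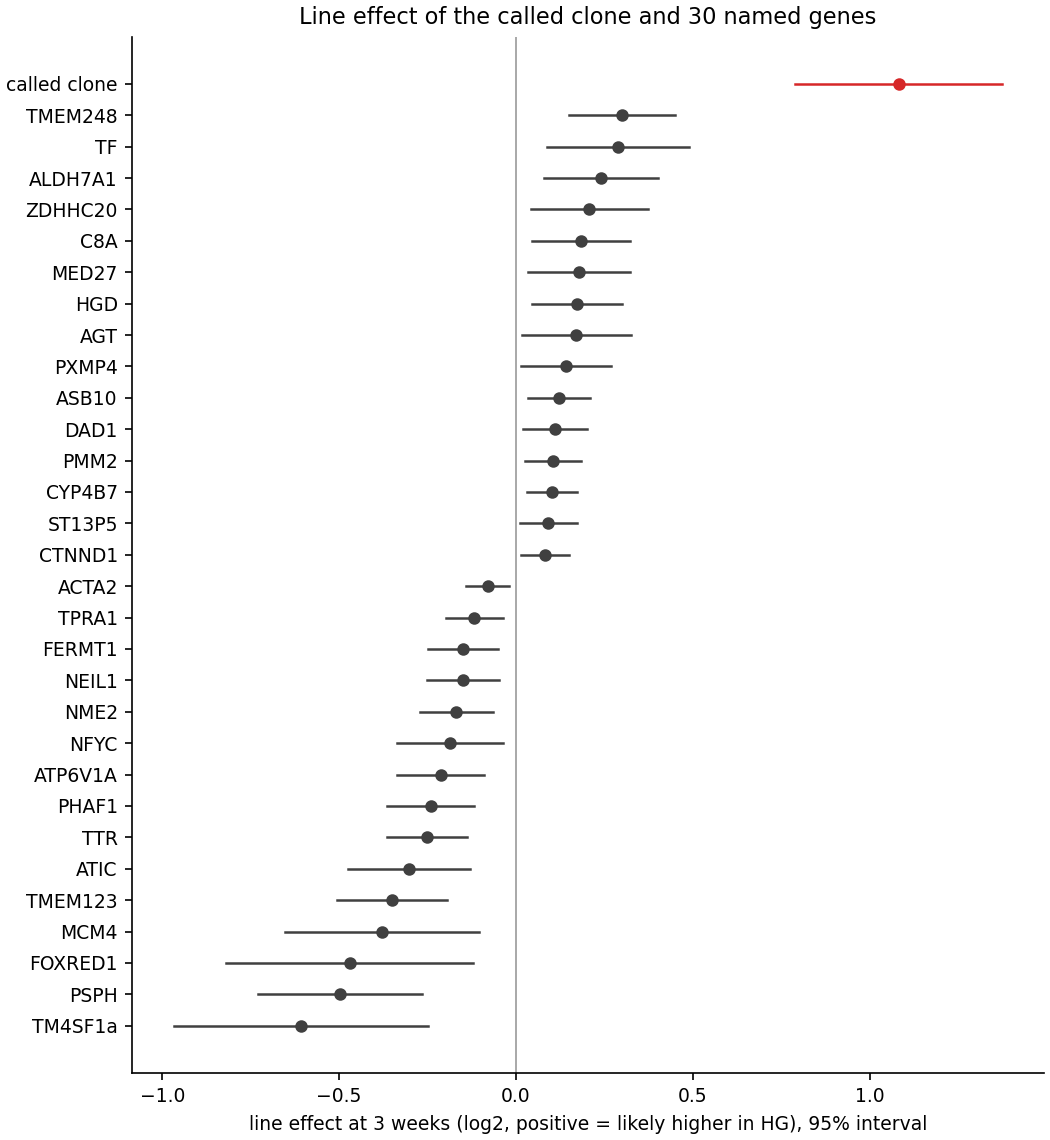
Line effect at 3 weeks (x axis, log2) with its 95% interval for the called clone, in red, and the 30 genes with the smallest p per side (y axis). The clone at 1.08 stands apart from the genes, which lie between -0.61 and 0.30, and its adjusted p alone passed.

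The sign of the same 30 probes was then read at the other ages, which the choice did not use. At 1 week 11 of 15 on each side had the sign of 3 weeks, against 48.1% of 7815 probes. At 5 weeks 9 of 14 on each side did, against 47.8%. At 7 weeks the counts were 9 of 15 positive and 8 of 14 negative genes, against 44.2%, and at 9 weeks 7 of 14 and 10 of 13, against 40.2%. At 11 weeks they were 8 of 15 and 10 of 14, against 45.7%. The share differed by side. Of all probes positive at 3 weeks, 53%, 54.2%, 55.4%, 51.8% and 56.1% kept their sign at 1, 5, 7, 9 and 11 weeks. Of all negative probes, 44.5%, 43%, 35.9%, 31.4% and 37.9% did. From 7 weeks on the positive genes were near the share of all positive probes. These shares are descriptions without a test. Of the 30, 26 had a value at each age. Among them the line effect of MED27 was positive at all 6 ages, and those of ATIC, ATP6V1A and TM4SF1a negative at each. Single arrays did not all share these signs. MED27 was positive on 2 of 4 arrays at 5 weeks. ATIC was negative on 7 of 12 arrays at 1 week and on 2 of 4 at 9 weeks. The second ATIC probe had a line effect of 0.03 at 1 week. The line effects of TM4SF1a at 5 weeks, -0.02, and of ATP6V1A at 9 weeks, -0.06, were near zero. Over all probes 412 of 6707, or 6.14%, had the same sign at all 6 ages. The line effect of MED27 was 0.20, 0.18, 0.25, 0.76, 0.60 and 1.38 from 1 to 11 weeks.

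The growth hormone, insulin-like growth factor and thyroid axis had 16 measured genes, with a median line effect of -0.020 beside -0.0055 over all 3790 genes. Of its genes 5 were positive, and over all genes 43.5% were, the share against which the counts of positive genes in the lists below are to be read. None of its 20 probes passed the threshold, and 4 had an unadjusted p under 0.05, all negative, against 2.62% of all probes with a gene symbol. These were the TTR probes, SOCS2, the growth hormone-induced inhibitor of its receptor's signal, at -0.12 (SE 0.042, 9 arrays), and INSR, the insulin receptor, at -0.09 (SE 0.032, 9 arrays). In SOCS2 the ratios ran from -0.38 to -0.08 with HG on 647 and from -0.05 to 0.28 with HG on 555, without overlap. The other SOCS2 probe had 0.01 and the other INSR probe -0.0066. GHR, the growth hormone receptor, had 0.02 (SE 0.048), IGFBP2 -0.01 (SE 0.041), IGFBP4 -0.03 (SE 0.032), DIO1, which activates thyroxine, -0.0052 (SE 0.029) and THRB, a thyroid hormone receptor, -0.03 (SE 0.029). IGF1, IGF2, IGFALS, IGFBP1, DIO3 and THRA were not analysed here.

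Acute phase genes, whose plasma products follow inflammation, numbered 13, of which 10 were positive (median 0.019), beside 43.5% of all genes. None of their 18 probes passed, and 4 had an unadjusted p under 0.05, all positive, from ORM1, AGT and TF, beside 2.62% of all probes with a symbol. ORM1, an acute phase glycoprotein, had log2 ratios of -0.33, -0.35, 1.10, 0.95 and 1.29 with HG on 647. With HG on 555 it had -0.28, 0.44, -0.87, -0.72 and -0.49. Replicates 2, 5 and 6 lay on the other side from the remaining 7 arrays once turned, and the orientations overlapped. The line effect was 0.46 (SE 0.18, 1.37-fold, adjusted p = 1.00, limma).

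Complement had 7 of 11 genes positive (median 0.012) and 0 of 16 probes past the threshold. C4, a component of the classical pathway, had 0.19 (SE 0.059, 9 arrays). C3, the central component, had 0.38 (SE 0.19), from -0.39 to 1.95 with HG on 647 and from -0.82 to 0.24 with HG on 555, and 0.23 (SE 0.16) in its other probe. Among 15 genes of antigen presentation and interferon response, 8 were positive, with a median of 0.0035. B2M, the light chain of class I molecules, had 0.39 (SE 0.12, 9 arrays) and 0.26 (SE 0.086) in its probes. In the first, HG on 647 gave values from -0.20 to 0.90 and HG on 555 from -0.85 to 0.03. Markers of leukocytes, which could carry such transcripts into a liver sample, had a median of -0.0054 over 9 genes, with 0 of 13 probes at an unadjusted p under 0.05. Their part in the B2M values was not tested.

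No lipid gene passed. Lipogenesis had 13 of 17 genes positive, beside 43.5% of all genes, with a median of 0.011 and 0 of 30 probes past the threshold. For FASN, which builds palmitate, the value was -0.02 (SE 0.16) in one probe, where the ratios ran from -0.92 to 0.68 with HG on 647, and 0.04 (SE 0.032) in the other. ACACA, which makes malonyl-CoA, had 0.04 (SE 0.029), ACLY, which supplies cytosolic acetyl-CoA, 0.13 (SE 0.12), SREBF1, a regulator of lipogenesis, 0.02 (SE 0.038), and THRSP, which thyroid hormone induces with the lipogenic enzymes, 0.15 (SE 0.13) and 0.03 (SE 0.067). FADS2, a fatty acid desaturase, was the only member with an unadjusted p under 0.05, at 0.28 (SE 0.12), and its other probe had -0.0031 (SE 0.028). The 95% interval of FASN's first probe ran from -0.37 to 0.33, so differences within that range remain compatible with its values. ME1, SCD, PPARG, PPARA, CPT1A and CYP7A1 were not analysed here.

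Cholesterol synthesis had 8 of 15 genes positive (median 0.0069), with ACAT2, a thiolase of its first step, at -0.26 (SE 0.072) in one probe and 0.06 in the other. Fatty acid oxidation had 7 of 15 positive (median -0.0026) and 0 of 20 probes at an unadjusted p under 0.05. Among lipid carriers, APOB, the core protein of very low density lipoprotein, had 0.14 (SE 0.10), APOA1 -0.05 and 0.01 in its probes, FABP1 0.08 (SE 0.063) and LBFABP, a fatty acid carrier of bird liver, -0.08 (SE 0.073). In glycolysis and gluconeogenesis 10 of 25 were positive (median -0.0084). GAPDH had 0.25 (SE 0.079), with 0.09 in each of its other 2 probes, and PCK1, which commits carbon to glucose, -0.05 (SE 0.048).

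Of 33 genes of xenobiotic metabolism 21 were positive (median 0.023), again beside 43.5%. The counts of probes at an unadjusted p under 0.05 below are to be read against 2.62% over all probes with a symbol. Probes of CYP4B7, GSTA2 and MGST1 had an unadjusted p under 0.05 on the positive side. GSTA2, a glutathione transferase, had 0.24 (SE 0.10) and MGST1, a membrane-bound glutathione transferase, 0.19 (SE 0.089). On the negative side stood ALDH3A2 at -0.07, with -0.01 in its other probe. Amino acid and urate metabolism had 14 of 28 positive (median -0.0032), with 2 of 36 probes under 0.05 positive, both of HGD, and 3 negative, of PSPH, ATIC and PSAT1. Bile acid genes had 6 of 9 positive, with SLCO1A2, a bile acid importer, at 0.24 (SE 0.10) and 0.28 (SE 0.15) in its probes. The proteasome had 1 probe under 0.05 on each side, PSMD2 at 0.17 and PSMC3 at -0.06. Translation factors had 2, EIF4A2 at -0.09 and EEF1A2 at -0.06. Other probes of EIF4A2 had -0.06 to -0.02 and that of EEF1A2 0.03. Ribosomal proteins (31 genes, median 0.018), oxidative phosphorylation (22 genes, median -0.0019), chaperones of the endoplasmic reticulum (23 genes, median -0.0014), cytosolic and mitochondrial chaperones (19 genes, median 0.0094), haemostasis (11 genes, median 0.022) and the clock (6 genes, median 0.0031) had 0. The cell cycle (15 genes, median 0.0077) had MCM4 alone. No probe of any list passed the threshold.

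Hepatocyte markers lay on both sides, with 8 of 14 genes positive and a median of 0.022. Of their 21 probes 5 had an unadjusted p under 0.05, 3 of them positive (ORM1 and TF) and 2 negative (TTR). Over all probes with a symbol the share was 2.62%. ORM1, TF and TTR were already counted in the lists above. No marker of hepatocytes or of another cell type passed. Erythroid markers had a median of -0.026 over 7 genes, with CA2, a carbonic anhydrase, at -0.10 (SE 0.040) in one probe and -0.01 in the other, and the globin HBBA at -0.03 (SE 0.037). Markers of matrix, stellate and endothelial cells had a median of -0.011 over 24 genes, with RGS5, a pericyte gene, at -0.09 and, in another probe, -0.02, beside ACTA2. Bile duct markers had -0.010 over 5 genes and markers of neighbouring organs 0.021 over 6 genes, with no probe at an unadjusted p under 0.05. Genes of the W chromosome and oestrogen response numbered 2, of which TF has been given and HINTW, a W-linked gene, had -0.02 (SE 0.037) in one probe. Its other probes had mean log2 ratios of -0.08 and 0.10 with HG on 647, and of -0.07 and 0.10 with HG on 555.

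The dye effect was far more widespread than the line effect. It passed in 2584 of 8072 probes, or 32%, with 1149 positive and 1435 negative (limma). These probes would be the line difference if the ratios had already been turned before deposit. Across probes, the unturned log2 ratio of each array correlated with the mean of the other 9 at r between 0.27 and 0.80. After turning and removal of the dye effect, that r lay between -0.17 and 0.17 and was above 0 for 3 of 10 arrays, replicates 7, 9 and 12. Leaving out an array shifts the dye effect against it. With 4 arrays kept per orientation 6 of 10 were above 0. Arrays of the same orientation correlated at a median r of 0.45 over 20 pairs (lowest 0.07), and arrays of opposite orientation at 0.40 over 25 pairs. These correlations are across probes, which are not independent.

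**Figure D4:**
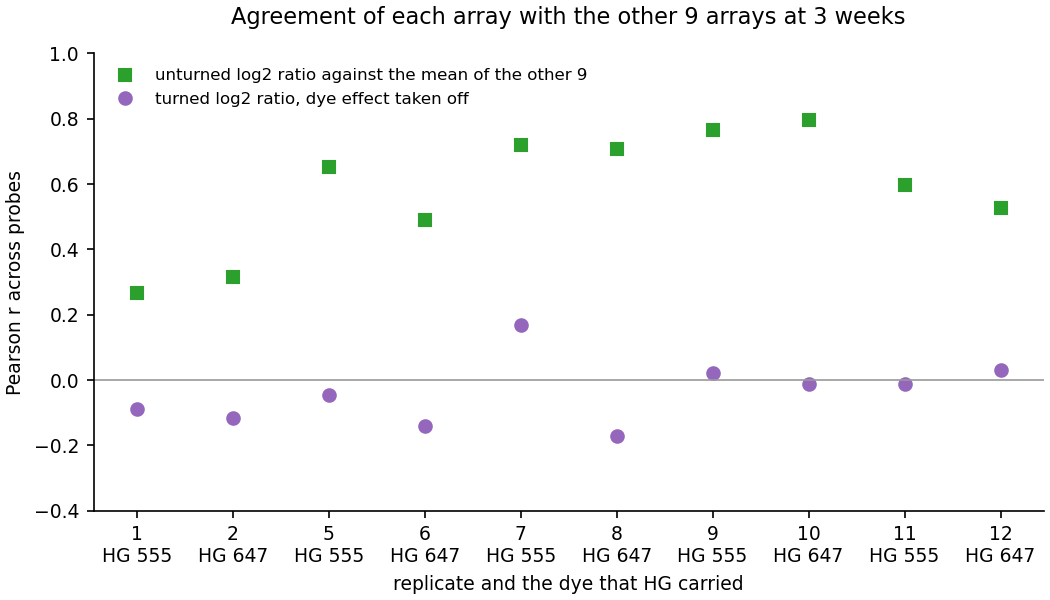
Pearson r across probes (y axis) of each array at 3 weeks (x axis, replicate and HG dye) with the mean of the other 9 arrays, for unturned log2 ratios (squares) and for turned ratios with the dye effect taken off (circles). Squares lie at 0.27 to 0.80, lowest for replicates 1 and 2, and circles between -0.17 and 0.17.

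The line effects of replicates 1 and 2 and of replicates 5 to 12 did not run together, with r = -0.10 and Spearman's rho = -0.22 across 7180 probes, given as a description. The median absolute line effect was 0.0889 in replicates 1 and 2 and 0.0231 in replicates 5 to 12. Their difference passed in 1133 of 7180 probes, or 15.8% (limma), 664 of them higher in replicates 5 to 12 and 469 lower. Replicates 1 and 2 hold 1 array per orientation, so the spread came from replicates 5 to 12 alone and was taken to apply to both, although the former arrays were wider. With all arrays scaled to the same median absolute deviation the count was 15, with a dye effect shared by both sets 301, and without replicate 10 it was 751. The clone had 0.73 in replicates 1 and 2 and 1.17 in replicates 5 to 12. TTR had -0.19 and -0.27, PSPH -0.41 and -0.52, TM4SF1a -1.06 and -0.50, and TMEM248 0.63 and 0.22. Many other values given above were of far greater size in replicates 1 and 2, among them most of the 15 genes of the positive side. ALDH7A1 had 0.61 and 0.15, ZDHHC20 0.60 and 0.11, MED27 0.46 and 0.11, C8A 0.46 and 0.12, and PXMP4 0.40 and 0.08. The first B2M probe had 0.86 and 0.245. MGST1 had 0.69 and 0.07, GSTA2 0.73 and 0.08, AGT 0.45 and 0.10, and FOXRED1 -1.18 and -0.29. Of greater size in replicates 5 to 12 were ORM1 (-0.02 and 0.58), ATIC (-0.05 and -0.37) and ATP6V1A (-0.01 and -0.26). So were ASB10 (-0.0019 and 0.15) and PMM2 (-0.01 and 0.13) of the positive side.

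The named genes with the largest differences between these sets all had the greater size in replicates 1 and 2. Among them C3 had 1.38 and 0.13 (difference -1.25, SE 0.28, adjusted p = 0.0182, limma). GOT1, an aspartate aminotransferase, had 1.12 and -0.14 (difference -1.25, SE 0.20), CAMKK2, a calcium-dependent kinase, 1.14 and -0.15 (difference -1.29, SE 0.26), ACTR1A, a dynactin subunit, 1.19 and 0.04, and CCNI, a cyclin, 0.96 and -0.14. On the other side stood SPATA20, at -0.85 and 0.04 (difference 0.89, SE 0.084, adjusted p = 0.00112, limma), SUGCT, a glutarate coenzyme A transferase, at -0.75 and -0.10, C4BPS, RXFP1, a relaxin receptor, and ZC3HAV1, an antiviral zinc finger protein. None of these 10 passed with the arrays scaled to the same median absolute deviation. In some of them 1 of the replicates 1 and 2 carried most of the value. SPATA20 had log2 ratios of 0.11 on replicate 1 and -1.59 on replicate 2, CAMKK2 -0.30 and 1.98, and C4BPS 1.18 and 0.26. ZC3HAV1, by contrast, had 0.57 and -0.57.

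**Figure D5:**
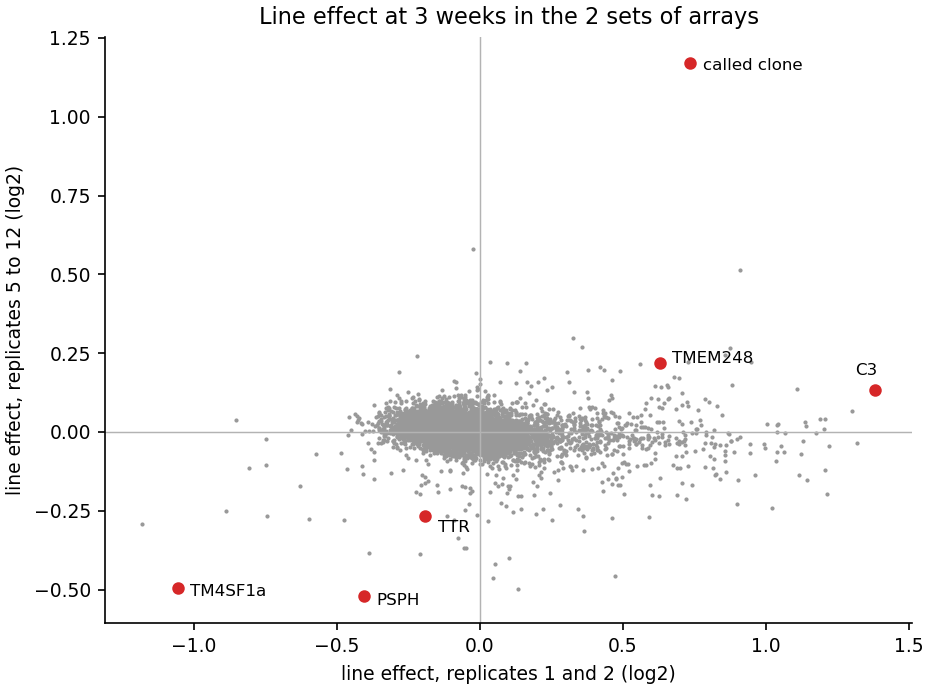
Line effect (log2) in replicates 5 to 12 (y axis) against replicates 1 and 2 (x axis) at 3 weeks, with 1 grey point for each of 7180 probes and 6 probes in red. Points spread more widely along x, with median absolute values of 0.0889 and 0.0231, and the called clone is high on both axes.

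Against the neighbouring ages, the line effect at 3 weeks differed from that at 1 week in 0 of 7089 probes (0%, limma). At an unadjusted p under 0.05 stood 97, fewer than the 5% expected without a difference. The line effect at 3 weeks differed from that at 5 weeks in 102 probes, or 1.44%, 35 of them higher at 3 weeks and 67 lower. Here 1130 had an unadjusted p under 0.05. This fit pooled the spread over 12, 10 and 4 arrays. Most arrays of 3 weeks were taken as the second hybridisation, which was made at the younger ages and not at 5 weeks. In the difference from 5 weeks, age and set of arrays therefore cannot be told apart. The named genes had their larger values at 5 weeks. LY6E, an interferon-inducible surface protein, had 0.02 (SE 0.12) and 0.05 (SE 0.052) in its probes at 3 weeks and 1.42 and 1.17 at 5 weeks (differences -1.40 and -1.11, adjusted p = 0.000993 and 2.55e-07, limma). KLHDC8A, a kelch protein, had 0.07 (SE 0.065) at 3 weeks and 1.10 at 5 (adjusted p = 1.55e-05). GPRC5C, an orphan receptor, had 0.19 (SE 0.071) and 1.19, and BHMT2, a methyltransferase of methionine synthesis, 0.15 (SE 0.19) and 1.77 (adjusted p = 0.0439).

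In the opposite direction AKR1D1, which reduces bile acid precursors, stood at -0.02 (SE 0.046) at 3 weeks and -0.79 at 5 weeks (difference 0.77, SE 0.087, adjusted p = 1.44e-05, limma). SLC38A4, an amino acid transporter of hepatocytes, had 0.09 (SE 0.13) and -0.98, the second ATIC probe -0.05 (SE 0.086) and -0.80, EEF1B2, an elongation factor subunit, -0.01 (SE 0.077) and -0.66, and WASF2, a regulator of actin, 0.03 (SE 0.083) and -0.58. At 3 weeks none of these values passed. With arrays scaled to the same median absolute deviation the count was 3, and the calls of AKR1D1, SLC38A4, ATIC, EEF1B2, WASF2, BHMT2, GPRC5C and the LY6E probe at 1.42 ended. With a dye effect shared by the ages it was 43. The count also moved with single arrays and was 1877 without replicate 4 of 5 weeks, 248 without replicate 1 and 185 without replicate 2, and it was 67 without replicate 9 of 3 weeks. Once turned, TTR had 0.34 on replicate 4 of 5 weeks, against -1.17, -2.35 and -1.84 on replicates 1, 2 and 3. ORM1 had -0.30 there, against 1.43, 1.53 and 1.67, while the called clone was positive there, at 2.68. The line effects at 5 weeks include this array. KLHDC8A and the probe of LY6E at 1.17 passed under all 18 alternatives, while BHMT2 passed under 5 of 15 and WASF2 under 4 of 18.

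Across probes the line effect at 3 weeks had r = 0.05 with that at 1 week, 0.12 at 5, 0.02 at 7, -0.0055 at 9 and 0.21 at 11 weeks, over 7181 to 7815 probes, as a description. Spearman's rho was between -0.21 and -0.01.

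Probes with a small p were not spread evenly over the printed rows of the array. Row 14 of its blocks, where the called clone lies, held 53 of 484 probes with an unadjusted p under 0.05, or 11.0%, with 17 positive and 36 negative. Columns 13 to 20 of that row held 29 of these 36 and 281 of its 484 probes. Row 13 held 22 of 350, or 6.29%, while the share over all rows was 2.75%. Among the 30 genes MED27, AGT and HGD, all positive, and MCM4, FOXRED1 and NFYC, all negative, lie in row 13. Of the 30 genes, TTR, TMEM123, PSPH, ATIC, TM4SF1a and FERMT1 lie in row 14, all negative, while the second probes of TTR and ATIC do not. Other probes in that row whose values are given above are those of ORM1, C4, PSMD2, SLCO1A2 (0.24), ACACA, FABP1, LBFABP and GHR, and the second probes of ST13P5 and FADS2. Rows 12 to 15 hold all tested probes whose accession starts with BG. The part of the printed position in these values was not tested.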

How the data were processed

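Per the labels, total RNA was purified on spin columns, checked by electrophoresis and labelled indirectly with the dyes. Each deposited value is a ratio of the dyes at a spot, on a linear scale. As array medians of its log2 lay between -0.034 and 0.0084, the deposited log2 values were taken as normalized within arrays, by steps that the sources used here do not give. Ratios that this compressed would stay compressed.

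The log2 was taken and spots of 1 accession were averaged, which gave 18547 probes. Symbols came from the platform annotation, and 10455 of 10601 annotated spots matched RefSeq genes (GRCg7b). limma 3.58.1 in R 4.3.3 fitted a line effect, +1 with HG on 647 and -1 with HG on 555, and a dye effect (median 8 residual degrees of freedom). Tests were two-sided with Benjamini-Hochberg adjustment over all probes of a contrast and a threshold of 0.05. Ages were compared in a fit of 1, 3 and 5 weeks for probes valued on 75% of the arrays of each. The fit was tested on simulated data. The number of arrays limits the precision.

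The members, the gene lists and the tests were chosen with earlier results of these data known. Named genes were the 15 smallest p per side with 1 sign on 80% of arrays or more, up to 4 per list, a fixed set of growth and lipid genes, and up to 5 per direction by size for differences between sets and ages. In the 28 lists, probes of 1 gene were averaged. Alternatives covered the filter, scaling, array weights, the dye term, the spread and each array left out. Same-numbered arrays at 1 and 3 weeks had r from -0.32 to 0.39 in their deviations, so numbers were not treated as pairs.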

Additional observations from a re-analysis of the deposited data

Results flagged for a closer look

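Replicates 3 and 4 of 3 weeks entered no comparison, and their log2 ratios correlated at r = 1.00 although their labels give opposite dyes. The called clone, positive on the other 10 arrays once turned, had 2.40 under the label of replicate 3 and -2.40 under that of replicate 4.

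Of 72 groups of arrays checked for a value far from the rest, 3 held one, and chance gives about 5% of groups. These were TMEM123 on replicate 7 (log2 ratio 0.0449 among the arrays with HG on 555), CYP4B7 on replicate 8 (-0.0531 with HG on 647) and CTNND1 on replicate 1 (0.0503 with HG on 555).

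Line effects that differed between 3 and 5 weeks by the contrast of the limma fit were, as 3 minus 5 weeks, 1.07 for SLC38A4, 0.77 for AKR1D1, 0.75 for ATIC, 0.64 for EEF1B2 and 0.61 for WASF2. On the other side they were -1.61 for BHMT2, -1.40 and -1.11 for the probes of LY6E, -1.02 for KLHDC8A and -0.999 for GPRC5C. Age and set of arrays cannot be told apart in these differences.

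Line effects that differed between the sets of arrays at 3 weeks were, as replicates 5 to 12 minus replicates 1 and 2, 0.89 for SPATA20, 0.64 for SUGCT, 0.50 for C4BPS, 0.50 for ZC3HAV1 and 0.48 for RXFP1. On the other side they were -1.29 for CAMKK2, -1.25 for GOT1, -1.25 for C3, -1.15 for ACTR1A and -1.10 for CCNI. With 1 array per orientation in replicates 1 and 2, the test could not use their own spread.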

How the results depend on the processing

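The count of 1 probe between the lines was 0 with replicates 3 and 4 included. It was also 0 with arrays scaled to the same median absolute deviation (MAD) and with the spread pooled over 38 arrays. In a setting added after the data were seen, without print row 14, 0 probes passed as well. The called clone lies in that row, so its loss there was fixed in advance and is no check of the call. The count was 0 to 1 with each array left out. It was 2 from replicates 5 to 12 alone, 5 from these with array weights (added after the data were seen), and 10 with array weights on all arrays, 1 positive and 9 negative. The named genes among these 10 were TTR (-0.29, adjusted p = 0.0346), PHAF1 (-0.30, 0.0415) and ATP6V1A (-0.24, 0.0415). In the other alternatives these 3 missed the threshold. Of the 10, TTR and all unnamed clones but that at block 47, row 1, column 18 lie in print row 14. That row held 484 of the 8072 probes tested. Replicates 1 and 2 had weights of 0.185 and 0.178, the others 0.792 to 4.54. Read as already turned, the ratios gave 2584 probes, and the clone then had 0.09 (adjusted p = 0.637). The dye effect passed in 4673 probes with array weights. The difference between the sets of arrays passed in 301 with a shared dye effect, 15 with scaled arrays, and 751 to 1221 with single arrays left out. For 3 minus 1 week the count of 0 became 3 with scaled arrays, 1 with replicates 3 and 4, 0 to 1 with single arrays left out, and 1 with the replicate block, whose numbers are not shown to pair arrays. A replicate block for 3 minus 5 weeks was not run, since their shared numbers carry HG on opposite dyes. For 3 minus 5 weeks the count of 102 became 3 with scaled arrays, 43 with a shared dye effect, 210 from replicates 5 to 12, and 67 to 1877 with single arrays left out. The agreement count of 3 became 6 with 4 arrays kept per orientation. Apart from the already turned reading, the effects of the clone and of the 30 genes changed sign in no alternative, and the causes were not tested.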

Other observations

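Other unnamed clones had 1 sign at all 6 ages and were singled out after their values were seen. The clone at block 13, row 14, column 11 had a line effect of -0.34 at 3 weeks (adjusted p = 1.00, limma) and -0.45 with array weights (adjusted p = 0.0116). At 1, 5, 7, 9 and 11 weeks it had -0.34, -0.77, -0.47, -0.79 and -0.38. ENO1, a glycolytic enolase, had -0.15 and -0.14 in 2 probes at 3 weeks, and both were negative at each of the 6 ages, lowest at 5 weeks with -0.99 and -0.83. Neither probe had an unadjusted p under 0.05 at 3 weeks (limma), and the orientations overlapped in both. In the second the ratios ran from -0.50 to 0.41 with HG on 647 and from -0.31 to 0.39 with HG on 555. Over all probes 6.14% had 1 sign at all 6 ages, and probes of 1 gene are not independent.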
